A study of Mus musculus with 6 samples.

Results

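The genes described here are 43 that build the contacts and the apical-basal axis of epithelial cells, leaving out the claudins: membrane proteins and scaffolds of the tight junction, adherens junction, desmosome and hemidesmosome, the polarity complexes, and a pair of epithelial regulators. They were taken by symbol from the deposited comparison table of 15138 genes, where each of the 43 had 1 row, and their raw counts came from the deposited count table of 46078 genes. All 43 passed the filter on low counts, so all are among the 16856 genes tested. RNA was sequenced from the colon epithelial fraction, washed off the tissue, of Lingo3-/- mice (3 libraries) and wild type mice (3 libraries), all 2 months old and kept without any challenge. The labels give no strain, sex or means of deletion, and do not say whether the 3 libraries of a genotype came from separate animals, so a p-value here reflects how far these libraries scatter, and that scatter may be technical.

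Neighbouring epithelial cells are sealed near their apical edge by tight junctions, in which membrane proteins such as occludin are tied to actin by ZO scaffolds, with angulins and tricellulin closing the corners where cells meet. Below them, cadherins and nectins of the adherens junction couple through catenins and afadin to actin, and desmosomal cadherins couple through plakoglobin, plakophilins and desmoplakin to keratin filaments. On the basal side the integrin of the hemidesmosome holds laminin, and the Par and Crumbs complexes mark the apical domain. In the colon these contacts form the barrier to the lumen, and cells keep them while they move from the crypt to the surface.

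Counts over genes were 17200931, 16762320 and 11868000 in Lingo3-/- replicates 1, 2 and 3 and 25010618, 28029583 and 25151356 in wild type replicates 1, 2 and 3. Genes of the mitochondrial genome took 34.7 to 36.3% of these counts in Lingo3-/- and 45.3 to 48.4% in wild type. Levels are therefore given as CPM, counts rescaled so that libraries of unequal size compare, with TMM factors, which allow for differences in composition. The targeted gene Lingo3 had 2, 0 and 1 counts in the Lingo3-/- libraries and 3, 3 and 1 in the wild type libraries, at or under a floor of 3 counts, so it does not check the labels. The protocol shared by the 6 libraries gives a wash with EDTA and DTT, but the cell type label names both agents only for wild type replicate 1 and EDTA alone for the other 5, so whether the wash differed is unknown. The epithelial markers fixed for the tissue were all present: the 11 summed to 5269 to 6698 CPM in Lingo3-/- and 4754 to 5497 CPM in wild type. Markers of other cells differed between the genotypes, with 11 of 13 T cell genes lower (summed level 180.0 to 295 CPM in Lingo3-/- and 447 to 534 CPM in wild type), at an edgeR adjusted p under 0.05. Of the other lists, 4 of 8 B cell genes, 1 of 5 smooth muscle genes and 2 of 3 tested endothelial genes were lower, 1 of 7 myeloid genes was higher and 1 lower, 2 of 11 epithelial genes were higher, and 0 of 6 fibroblast genes passed. The B cell markers summed to 22.7 to 32.1 CPM in Lingo3-/- and 49.4 to 102 CPM in wild type, the myeloid markers to 62.3 to 219 and 83.5 to 100.4 CPM, and the smooth muscle markers to 9.94 to 11.1 and 10.97 to 14.1 CPM. No listed marker was at 0 in every library, and the part of these cells in the results below was not tested.

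Of the 43 genes, 5 were higher in Lingo3-/- and 2 were lower, and 36 did not pass. The threshold was 0.05 on the p-value of the edgeR quasi-likelihood test after adjustment over all genes. In a bulk sample, a change in the number of cells of a type and in RNA per cell cannot be told apart: fewer cells and less RNA per cell look alike. The genes that rose encode the laminin-binding integrin subunit alpha 6 (Itga6), the desmosomal cadherin desmocollin 2 (Dsc2), the adhesion receptor Nectin3 and the angulins Lsr and Ildr1 of tricellular contacts. Those that fell encode Plekha7, a linker of the adherens junction to microtubules, and envoplakin (Evpl), a plakin. The 7 calls are 16.3% of the members, against 15.4% of all genes tested, so the share called lay near the background. Leaving out wild type replicate 1 gave 7 higher and 1 lower, and leaving out Lingo3-/- replicate 3 gave 3 higher and 1 lower. Without Lingo3-/- replicate 2 there were 4 higher and 0 lower, without wild type replicate 2 or 3 there were 4 higher and 1 lower, and without Lingo3-/- replicate 1 there were 5 higher and 3 lower. By direction, the 5 higher compare with 9.43% of all genes and the 2 lower with 5.97%. The changes were small: the largest was 0.74 on the log2 scale and 0 of the 43 passed 2-fold. The median absolute log2 fold change was 0.17, against 0.26 over all genes tested. Over the 12552 genes at least as abundant as the lowest member (2.26 CPM), that median was 0.23, and 19.0% were called. The median log2 fold change of the members was -0.0012, with 21 positive and 22 negative, beside -0.03 over all genes. The CPM of the 2 genotypes did not overlap for 11 members, or 25.6%, against 35.6% of all genes tested.

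**Figure D1:**
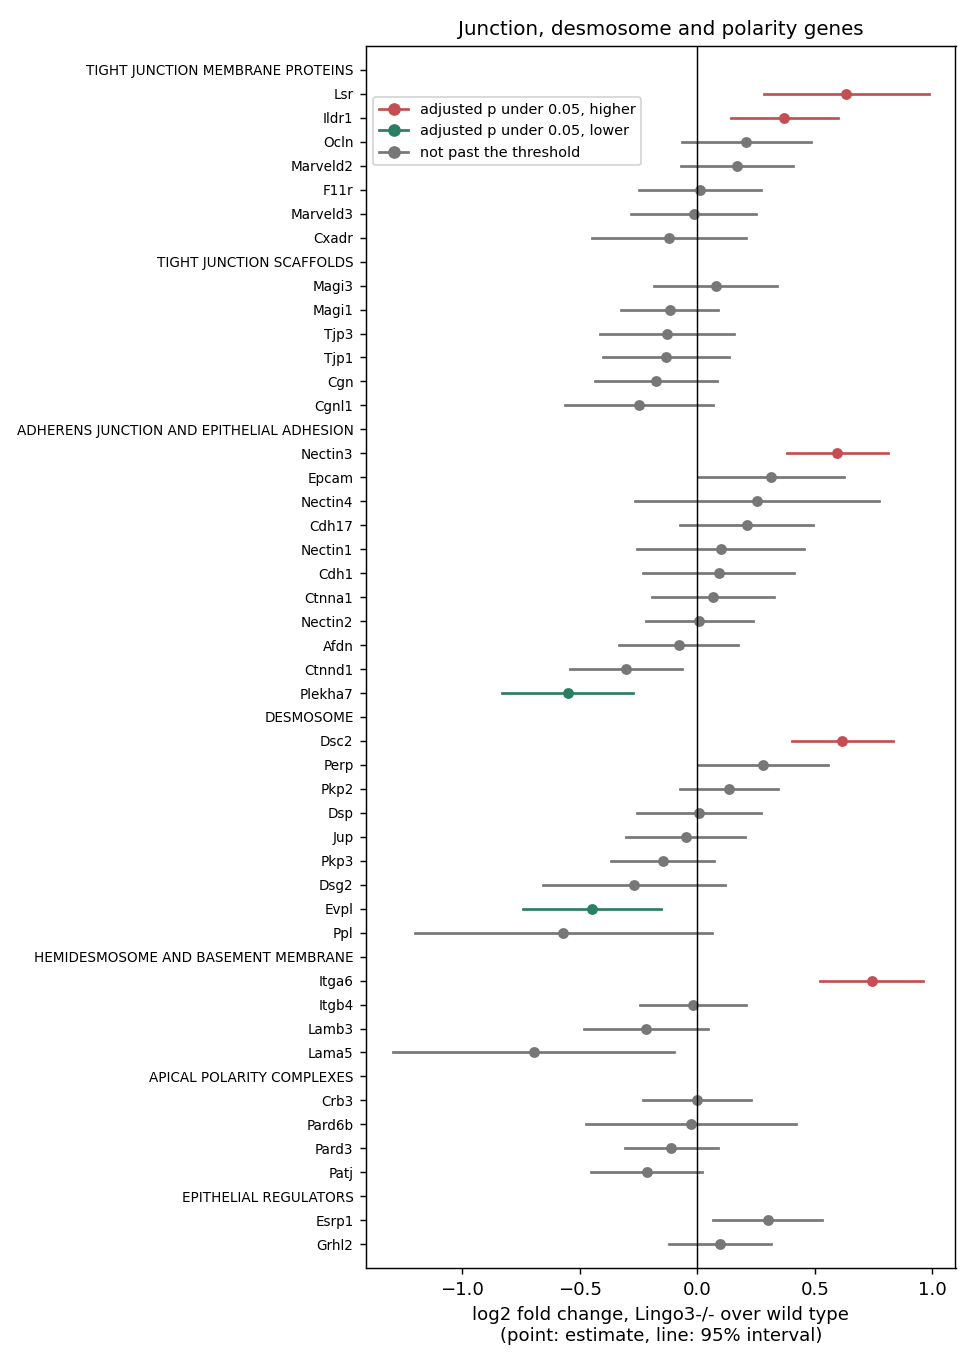
Log2 fold change of each of the 43 genes by role, Lingo3-/- over wild type (x axis), with the 95% interval of edgeR's quasi-likelihood fit (lines). The 5 genes in red and the 2 in green passed an adjusted p of 0.05, and the largest estimate is 0.74 for Itga6.

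**Figure D2:**
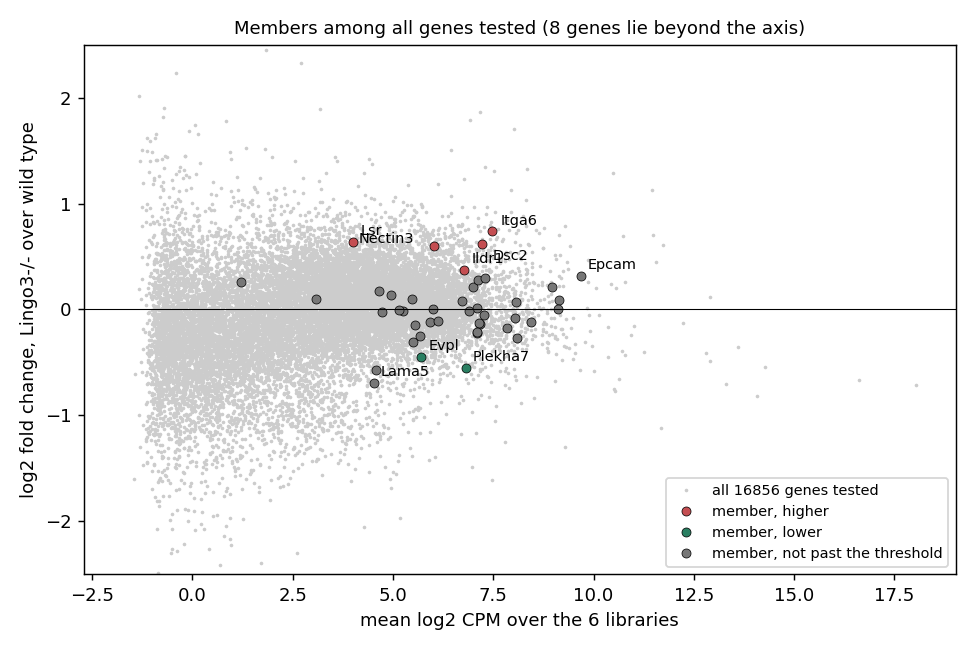
Log2 fold change (y axis) against mean log2 CPM over the 6 libraries (x axis) for the 16856 genes tested (grey) and the 43 genes (large points). The members lie within 0.74 of 0, and 8 genes of the whole table lie beyond the y axis.

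The levels of the 43 genes spread widely. Per kilobase of exon, the most abundant transcript was that of the adhesion molecule Epcam, with 419 CPM per kilobase in Lingo3-/- and 337 in wild type. E-cadherin (Cdh1, 128 in Lingo3-/- and 120.4 in wild type), the intestinal cadherin Cdh17 (120.3 and 104) and the desmosome-associated membrane protein Perp (79.3 and 65.4) followed. Per kilobase, the libraries of Cdh1 and Cdh17 overlapped within each genotype. Counts of Cdh17 were nevertheless below those of Cdh1 in every library, with ratios of 0.872, 0.901 and 0.980 in Lingo3-/- and 0.787, 0.906 and 0.865 in wild type, which overlap between the genotypes. At the low end stood Nectin4 (0.655 and 0.551 CPM per kilobase), Nectin1 (1.53 and 1.43) and the laminin subunit gene Lama5 (1.61 and 2.63). In Lingo3-/- the levels of Nectin1 and Lama5 lay within the SD of Lama5.

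**Figure D3:**
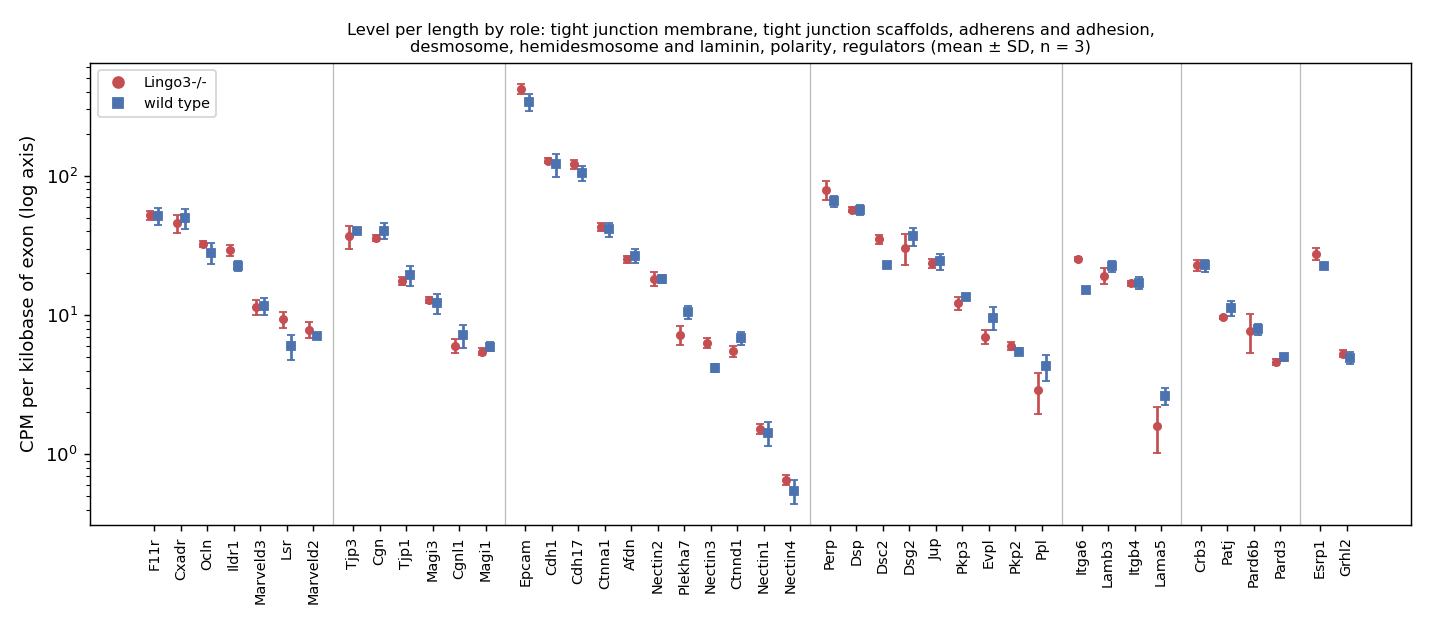
Level of each gene in CPM per kilobase of exon on a log axis, ordered within its role, as mean ± SD over 3 libraries (circles Lingo3-/-, squares wild type). Epcam is highest at 419 in Lingo3-/- and 337 in wild type, and Nectin4 lowest at 0.655 and 0.551.

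Among the membrane proteins of the tight junction, 2 of 7 rose and 0 fell, with a median log2 fold change of 0.17. Over all genes tested 9.43% were higher and 5.97% lower, and a role of so few genes cannot be told from that share. Both that rose are angulins, which recruit tricellulin to the corners between cells. Lsr stood at 17.2, 20.9 and 22.6 CPM in Lingo3-/- replicates 1, 2 and 3, against 14.6, 14.4 and 9.93 CPM in wild type replicates 1, 2 and 3. The groups did not overlap, with wild type replicate 3 the lowest of all. Lsr rose by 0.63 ± 0.16 on the log2 scale (SE; edgeR adjusted p = 0.0231). Lsr lost its call without Lingo3-/- replicate 2 (adjusted p = 0.0702) or 3 (0.0985), within an edgeR, DESeq2 or limma-voom range of 2.13e-05 to 0.0985 over 15 alternatives. Its exons share 43.6% of their bases with an antisense gene, Gm4673, and the strand setting of the counting is not given in the sources used here, so its value is uncertain.

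Ildr1 stood at 128, 113 and 134 CPM in Lingo3-/- and at 105, 93.9 and 91.1 CPM in wild type. Again the groups did not overlap, and Lingo3-/- replicate 2 lay closest to the wild type libraries. Ildr1 rose by 0.37 ± 0.10 on the log2 scale (SE; edgeR adjusted p = 0.0342). Ildr1 lost its call with upper-quartile factors (adjusted p = 0.0638) and without Lingo3-/- replicate 1 (0.0664) or 3 (0.121) or wild type replicate 2 (0.0748) or 3 (0.0880), within a range of 0.000302 to 0.121. Tricellulin itself (Marveld2), their partner, had 28.6, 28.5 and 22.6 CPM in Lingo3-/- and 23.3, 23.2 and 24.7 CPM in wild type, which overlap. The ratio of Lsr to Marveld2 counts overlapped between genotypes, and so did that of Ildr1 to Marveld2, with exact permutation p = 0.3 and 0.5.

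The promoters of these angulin genes are shown because both rose and because a short motif recurs in the promoters of this group. The sequences come from RefSeq (GRCm38.p6) and run 5′ to 3′ on the gene's strand from 250 bases before to 50 after a listed start. For 28 of the group's 35 windows, the bases just after that start were found in a GENCODE M21 transcript of the gene. Capitals mark CAGGTG or its complement CACCTG, the E-box hexamer known as a binding sequence of the Snail and Zeb repressors of epithelial genes. The Lsr window lies on the minus strand at chr7:30973420-30973719 and holds 4 copies; the Ildr1 window lies on the plus strand at chr16:36693728-36694027 and holds 1.
Lsr: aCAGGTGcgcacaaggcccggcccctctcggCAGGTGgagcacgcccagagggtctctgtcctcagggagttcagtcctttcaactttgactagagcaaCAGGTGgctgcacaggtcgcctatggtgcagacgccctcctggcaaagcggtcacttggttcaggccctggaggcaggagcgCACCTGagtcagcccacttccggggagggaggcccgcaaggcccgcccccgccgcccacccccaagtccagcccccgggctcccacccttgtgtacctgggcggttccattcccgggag
Ildr1: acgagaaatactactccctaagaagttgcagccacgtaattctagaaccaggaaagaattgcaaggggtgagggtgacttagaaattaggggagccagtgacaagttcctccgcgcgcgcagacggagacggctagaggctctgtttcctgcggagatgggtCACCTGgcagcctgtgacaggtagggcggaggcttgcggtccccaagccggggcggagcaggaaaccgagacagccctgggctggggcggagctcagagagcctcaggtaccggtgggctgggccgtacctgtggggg

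The table of promoters held 35 windows for 25 of the 43 genes. The hexamer CAGGTG, on either strand, was in 20 of these 35 windows (57.1%), against 20.2% of all 32851 promoter windows. The windows of the group are rich in G and C, with a median of 62.3% against 52.7% over all. Among the 3881 windows with 60 to 65% G and C, 22.5% held the hexamer. Windows of the same gene can overlap, as do those of Crb3, Ocln and Marveld2, so that a copy can count more than once. Counted by gene, 16 of the 25 (64%) held the hexamer in any window, against 22.6% of all 27025 genes. With only the first window listed of each gene, 13 of the 25 (52%) held it, against 20% of all genes. In all 8 motifs were searched, on both strands. The general E-box CANNTG, which contains the hexamer, was in 82.9% of the group's windows and in 72.3% of all. The core motif of the Grainyhead factors, AACCGGTT, was in 0 of 35 and in 0.146% of all, and the looser AACNGGTT, which contains it, was in 2.86% and 2.09%. CCGCCC, a core of GC boxes, was in 68.6% of the group's windows, 35.7% of all and 70.1% of those with 60 to 65% G and C, and GGGGCGGGG, which contains its complement, was in 25.7%, 11.4% and 21.7%. TTTATGG was in 2.86% of the group's windows and 2.75% of all, and CAAAG in 25.7% and 53.9%. Among the windows with 60 to 65% G and C, CANNTG was in 66.5%, AACCGGTT in 0.18% and AACNGGTT in 1.37%. In those windows TTTATGG was in 1.62% and CAAAG in 45.9%. These matches describe letters in a window of 300 bases. Among the genes called, Itga6, Dsc2, Plekha7 and Evpl had no window. Nectin3, which also rose, held 0 copies of CAGGTG in its window. Each Crb3 window held 4 copies (log2 fold change -0.0012) and the Lama5 window 2 (-0.70). Binding was not measured, and whether the hexamer bears on any change was not tested.

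The hexamer is shown with 12 bases on each side for a tight junction, an adherens junction, a desmosome and a polarity gene, to show that the bases around it differ. For Ocln (minus strand, chr13:100552549-100552578) its first base lies 68 bases before the first start listed, for F11r (plus strand, chr1:171437427-171437456) 122 before, for Epcam (plus strand, chr17:87635948-87635977) 19 before and for Nectin2 (minus strand, chr7:19749609-19749638) 53 before. For Dsp (plus strand, chr13:38151285-38151314) it is base 4 after the start. For Crb3 (plus strand, chr17:57062126-57062155) it lies 63 bases before the first start listed. The stretches shown for Ocln, Nectin2 and Crb3 lie inside the genes as annotated by GENCODE M21. These genes start at chr13:100552718, chr7:19750483 and chr17:57059105, in that order.
Ocln: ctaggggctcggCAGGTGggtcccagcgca
F11r: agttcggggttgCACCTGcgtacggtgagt
Epcam: acccataaaaccCAGGTGtggaggagaagc
Nectin2: cgtggggccagaCAGGTGtgggacgcggga
Dsp: gaagaagccgacCAGGTGtggcctgggcgc
Crb3: gggttcccgttaCAGGTGctctggcggcgc

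Occludin (Ocln), the first membrane protein found in tight junctions, had 145, 132 and 133 CPM in Lingo3-/- and 139.7, 98.3 and 117 CPM in wild type. The groups overlapped through wild type replicate 1, and the log2 fold change was 0.21 (95% interval -0.07 to 0.48; edgeR adjusted p = 0.279). Ocln passed without wild type replicate 1 (adjusted p = 0.0493) and with library totals only (0.00401), within a range of 0.00401 to 0.596. The most abundant gene of this role by CPM, Cxadr, which encodes the coxsackievirus and adenovirus receptor, had 369, 277 and 361 CPM in Lingo3-/- and 430.2, 316 and 349 CPM in wild type, which overlap (log2 fold change -0.12, 95% interval -0.45 to 0.21). F11r, the junctional adhesion molecule A gene, and Marveld3 had log2 fold changes of 0.01 and -0.02.

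None of the 6 scaffold genes of the tight junction passed the edgeR test, by DESeq2 or limma-voom either, and 0 of them had an unadjusted p under 0.05 by edgeR. Magi3 passed with library totals only (adjusted p = 0.0148), within a range of 0.0148 to 0.962. Tjp1, which encodes ZO-1, had 148, 131 and 133 CPM in Lingo3-/- and 174, 127 and 150.6 CPM in wild type. These overlap, and the 95% interval of the log2 fold change ran from -0.40 to 0.14. Cingulin (Cgn), a linker to actin at the junction, was the most abundant of the scaffolds by CPM. It had 202, 219 and 223 CPM in Lingo3-/- and 223, 225 and 280.3 CPM in wild type, which did not overlap although they nearly touch (log2 fold change -0.18; edgeR adjusted p = 0.331). Its relative paracingulin (Cgnl1) had the largest estimate of the role, -0.25 (95% interval -0.56 to 0.07), with 52.6, 41.5 and 47.7 CPM in Lingo3-/- and 65.7, 58.0 and 44.7 CPM in wild type. Tjp3, Magi1 and Magi3 lay between -0.13 and 0.08. With library totals only, the estimates of Tjp1, Tjp3, Cgn, Cgnl1 and Magi1 turned positive; under that scaling the median over every gene tested shifted by 0.28.

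In the adherens junction and adhesion group 1 of 11 genes rose, 1 fell and 9 did not pass. Over all genes tested 9.43% were higher and 5.97% lower. Nectin3, an immunoglobulin-like receptor that binds nectins of the neighbouring cell, had 72.6, 85.02 and 83.1 CPM in Lingo3-/- and 57.1, 50.2 and 51.9 CPM in wild type. Every Lingo3-/- library was above every wild type library. Nectin3 rose by 0.60 ± 0.10 on the log2 scale (SE; edgeR adjusted p = 0.00347), and the call was kept in all 15 alternatives (1.87e-06 to 0.0237). The other nectins did not pass: Nectin1 had a log2 fold change of 0.10, Nectin2 of 0.01 and Nectin4 of 0.25, the last from a mean of 2.45 CPM in Lingo3-/- and 2.06 CPM in wild type. Within each library the ratio of Nectin3 to Nectin2 counts was 1.15, 1.504 and 1.16 in Lingo3-/- and 0.839, 0.829 and 0.846 in wild type. The ratio of Nectin3 to afadin (Afdn), the scaffold that nectins bind, was 0.279, 0.314 and 0.343 in Lingo3-/- and 0.207, 0.208 and 0.173 in wild type. For both ratios the groups did not overlap, with an exact permutation p of 0.1, the smallest that 3 against 3 libraries can give.

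Plekha7, which ties p120-catenin to microtubule minus ends at the apical adherens belt, had 80.1, 90.3 and 109 CPM in Lingo3-/- and 126, 131 and 153 CPM in wild type. The groups did not overlap, with the highest Lingo3-/- library below the lowest wild type library. Plekha7 fell, at -0.55 ± 0.13 on the log2 scale (SE; edgeR adjusted p = 0.0144). It lost its call with library totals only (adjusted p = 0.0962) and without Lingo3-/- replicate 2 (0.0557) or wild type replicate 3 (0.0542), within a range of 4.98e-05 to 0.0962. Its binding partner p120-catenin (Ctnnd1) had 37.8, 44.7 and 38.9 CPM in Lingo3-/- and 45.2, 48.5 and 56.3 CPM in wild type, with a log2 fold change of -0.30 that did not pass (edgeR adjusted p = 0.0801). Ctnnd1 passed with upper-quartile factors (adjusted p = 0.0401), within a range of 0.0401 to 0.910. Ctnnd1 shares 61.2% of its exon bases with Gm28635, a gene on the same strand, so reads there could be left uncounted and its level is uncertain. The ratio of Plekha7 to Ctnnd1 counts overlapped between genotypes (exact permutation p = 0.4).

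The core cadherin complex did not pass. Cdh1 had 608, 558 and 593 CPM in Lingo3-/- and 666, 455 and 531 CPM in wild type, and the wild type libraries span the range of the Lingo3-/- libraries. Its log2 fold change was 0.09 (95% interval -0.23 to 0.41; edgeR adjusted p = 0.712). Alpha-catenin (Ctnna1) had 0.07 (95% interval -0.19 to 0.33) and Afdn -0.08 (-0.33 to 0.17). Epcam, which marks epithelial cells and stabilises claudins in the intestine, had 907, 846 and 1006 CPM in Lingo3-/- and 853, 644 and 722 CPM in wild type. These overlap through wild type replicate 1, and the log2 fold change of 0.31 did not pass (95% interval 0.0018 to 0.63; edgeR adjusted p = 0.158). Epcam passed without wild type replicate 1 (adjusted p = 0.0459) and with library totals only (0.00160), within a range of 0.00160 to 0.369. Cdh17 had a log2 fold change of 0.21.

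Of the 9 desmosome genes 1 rose, 1 fell and 7 did not pass, beside 9.43% higher and 5.97% lower over all genes tested. Dsc2 had 174, 179.9 and 199.5 CPM in Lingo3-/- and 121, 118 and 122 CPM in wild type, so the wild type libraries lay close together and well below the others. The log2 fold change was 0.62 ± 0.10 (SE; edgeR adjusted p = 0.00299), and the call was kept in all 15 alternatives (2.04e-06 to 0.0202). Its partner cadherin desmoglein 2 (Dsg2) had 322, 209 and 225 CPM in Lingo3-/- and 349.6, 257 and 305 CPM in wild type, which overlap (log2 fold change -0.27, 95% interval -0.66 to 0.12). Within each library the ratio of Dsc2 to Dsg2 counts was 0.541, 0.862 and 0.888 in Lingo3-/- and 0.347, 0.459 and 0.399 in wild type. These did not overlap, with a difference of 0.90 on the log2 scale (exact permutation p = 0.1).

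Among the plakins and plaque proteins, desmoplakin (Dsp), the link to keratin and the most abundant desmosome transcript by CPM, had 572, 525 and 558 CPM in Lingo3-/- and 588, 497 and 563 CPM in wild type. Its log2 fold change was 0.01 (95% interval -0.26 to 0.27). Evpl had 39.9, 44.4 and 49.8 CPM in Lingo3-/- and 74.1, 54.8 and 54.1 CPM in wild type, with wild type replicate 1 apart from the other libraries. It fell by 0.45 ± 0.13 on the log2 scale (SE; edgeR adjusted p = 0.0449). Evpl was called in 8 of 15 alternatives. Among others, its call was lost without any 1 of Lingo3-/- replicates 1, 2 and 3 (adjusted p = 0.122, 0.121 and 0.0726), without wild type replicate 1 (0.126) or 2 (0.0528), and with library totals only (0.304), within a range of 0.00122 to 0.304. Periplakin (Ppl), with which envoplakin pairs, had 27.1, 14.7 and 17.8 CPM in Lingo3-/- and 33.2, 33.3 and 22.4 CPM in wild type, which overlap (log2 fold change -0.57, 95% interval -1.20 to 0.06; edgeR adjusted p = 0.196). Ppl passed by DESeq2 (adjusted p = 0.0484), with no filter (0.00286) and without Lingo3-/- replicate 1 (0.0190), within a range of 0.00286 to 0.464. Plakoglobin (Jup), the plakophilins Pkp2 and Pkp3 and Perp had log2 fold changes of -0.05, 0.13, -0.15 and 0.28 and did not pass.

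**Figure D4:**
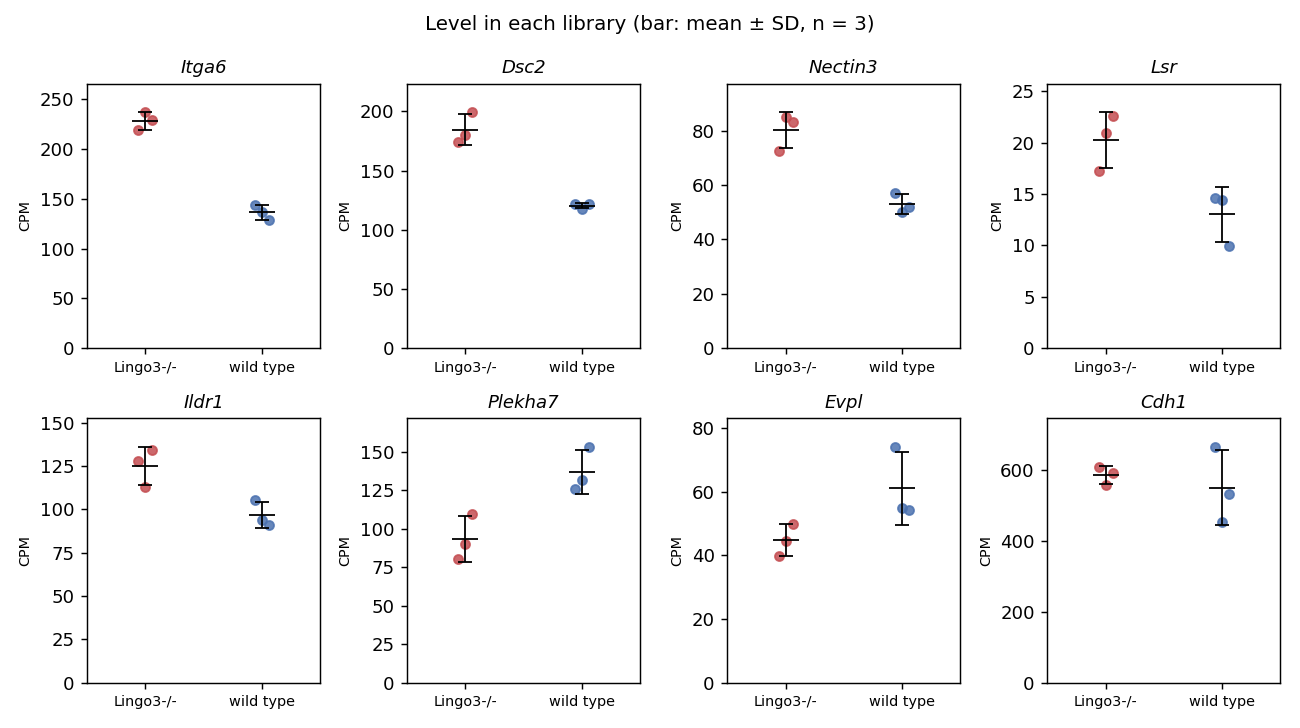
CPM in each library for the 7 genes that passed the test and for Cdh1, with mean ± SD (n = 3) and axes from 0. Itga6 averages 228 CPM in Lingo3-/- and 137 CPM in wild type without overlap, whereas the 3 wild type values of Cdh1 span those of Lingo3-/-.

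In the hemidesmosome and basement membrane group 1 of 4 genes rose, beside 9.43% of all genes tested. Itga6, whose product pairs with integrin beta 4 in hemidesmosomes and with integrin beta 1 elsewhere, had 219, 237 and 229 CPM in Lingo3-/- and 144, 137 and 129 CPM in wild type. The groups lie far apart for their spread, with means of 228 ± 9.05 CPM in Lingo3-/- and 137 ± 7.43 CPM in wild type (SD, n = 3). Itga6 rose by 0.74 ± 0.10 on the log2 scale (SE; edgeR adjusted p = 0.00164), a 1.67-fold level, and the call was kept in all 15 alternatives (2.18e-09 to 0.0135). The beta 4 subunit gene Itgb4 had 123, 115 and 117 CPM in Lingo3-/- and 129, 106 and 124 CPM in wild type, which overlap (log2 fold change -0.02, 95% interval -0.24 to 0.21).

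The ratio of Itga6 to Itgb4 counts was 1.77, 2.06 and 1.96 in Lingo3-/- and 1.11, 1.29 and 1.04 in wild type. The groups did not overlap, with a difference of 0.76 on the log2 scale (exact permutation p = 0.1). The other partner gene, Itgb1, is not one of the 43. It had 129, 129 and 139 CPM in Lingo3-/- and 91.2, 92.8 and 74.9 CPM in wild type and also rose (log2 fold change 0.62; edgeR adjusted p = 0.00418). The ratio of Itga6 to Itgb1 counts was 1.69, 1.83 and 1.65 in Lingo3-/- and 1.58, 1.47 and 1.72 in wild type, which overlap (exact permutation p = 0.3). In all 14 such ratios were compared, for pairs chosen with the fold changes known, and none had an adjusted p under 0.28.

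**Figure D5:**
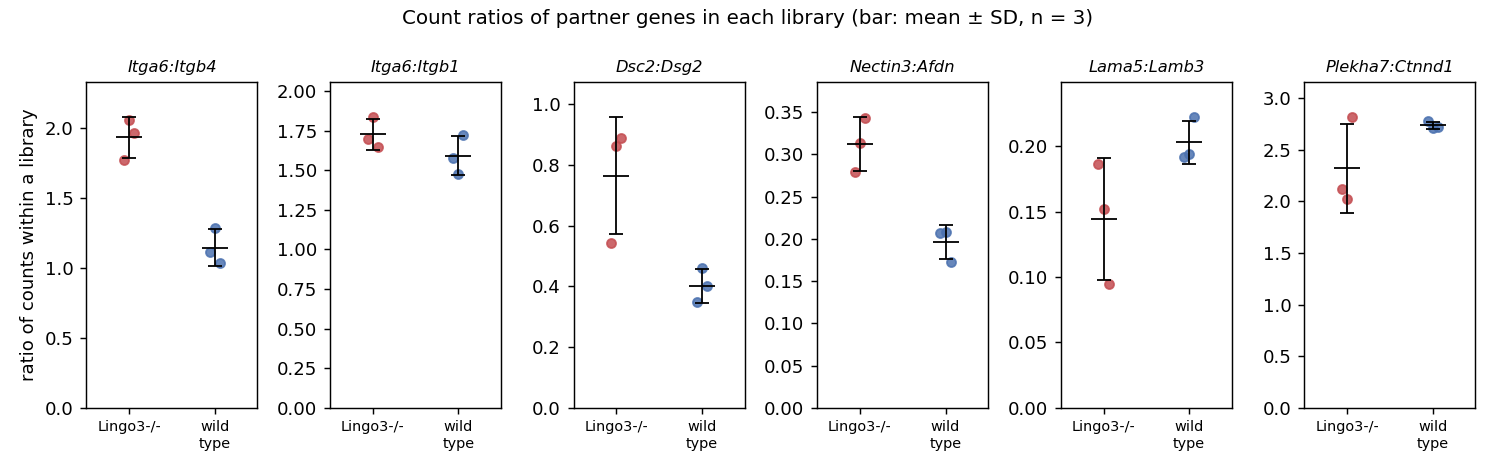
Ratio of the counts of 2 genes within each library, with mean ± SD (n = 3), on axes from 0. Lama5 and Lamb3, drawn as a pair, are chains of different laminins and not partners. The ratio of Itga6 to Itgb4 is 1.77 to 2.06 in Lingo3-/- and 1.04 to 1.29 in wild type, while that of Itga6 to Itgb1 overlaps between the genotypes.

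The laminin genes did not pass. Lama5, a chain of the laminin of mature epithelial basement membranes, had 25.8, 16.3 and 12.8 CPM in Lingo3-/- and 30.4, 25.6 and 34.0 CPM in wild type. Lingo3-/- replicate 1 overlaps wild type replicate 2, and the other 2 Lingo3-/- libraries lie below all wild type libraries. The log2 fold change was -0.70 ± 0.25 (SE; edgeR adjusted p = 0.112). Lama5 passed without Lingo3-/- replicate 1 (adjusted p = 0.00298), by DESeq2 (0.00934) and with no filter on low counts (9.05e-06), within a range of 9.05e-06 to 0.306. Endothelial cells and fibroblasts also make laminins. At an edgeR adjusted p under 0.05, 2 of 3 tested endothelial markers were lower and 0 of 6 fibroblast markers passed. All 6 fibroblast markers nevertheless had negative log2 fold changes, with a median of -1.27. The 6 endothelial markers summed to 5.68 to 8.50 CPM in Lingo3-/- and 11.8 to 15.7 CPM in wild type, and the 6 fibroblast markers to 225 to 463 CPM in Lingo3-/- and 335 to 987 CPM in wild type, which overlap. Their part in the value of Lama5 was not tested. Lamb3, a chain of the laminin bound by hemidesmosomes, had a log2 fold change of -0.22 (95% interval -0.48 to 0.04).

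None of the 4 polarity genes passed by edgeR, DESeq2 or limma-voom, and 0 had an unadjusted p under 0.05 by edgeR. With library totals only Crb3 passed (adjusted p = 0.0347), within a range of 0.0347 to 0.997. Patj, a scaffold of the Crumbs complex, was the most abundant by CPM and had the largest estimate. It had 129.6, 122 and 126 CPM in Lingo3-/- and 143, 131 and 166 CPM in wild type, which did not overlap (log2 fold change -0.22, 95% interval -0.45 to 0.02; edgeR adjusted p = 0.195). Crb3, the Crumbs protein of most epithelia, stood at a mean of 35.5 CPM in both genotypes, with a log2 fold change of -0.0012 (95% interval -0.23 to 0.23). Pard3 had -0.11 and Pard6b -0.03, where Pard6b had an interval of -0.48 to 0.42 and 35.7 CPM in Lingo3-/- replicate 1 against 22.2 and 21.1 CPM in replicates 2 and 3.

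The epithelial regulators did not pass. Esrp1, a splicing factor that sets epithelial isoforms, had 154, 188 and 178 CPM in Lingo3-/- and 134, 143 and 146 CPM in wild type. The groups did not overlap, and the log2 fold change was 0.30 (95% interval 0.07 to 0.53; edgeR adjusted p = 0.0791). Esrp1 passed without Lingo3-/- replicate 1 (adjusted p = 0.0386) and with library totals only (0.00145), within a range of 0.00145 to 0.254. Grhl2, a Grainyhead transcription factor of epithelial identity, had a log2 fold change of 0.10 (95% interval -0.12 to 0.31).

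Of 55 further genes of the same structures 50 were tested: 5 were higher and 2 lower, and 43 did not pass. Itgb1 and Prkci, the atypical protein kinase C of the Par complex (log2 fold change 0.46; edgeR adjusted p = 0.00858), rose and were called in all 15 alternatives. Lin7c, a polarity scaffold of the Crumbs and cadherin complexes (log2 fold change 0.48; edgeR adjusted p = 0.0123), rose and lost its call without Lingo3-/- replicate 3 (0.0594). Pkp1, a plakophilin better known from skin (log2 fold change 0.64; edgeR adjusted p = 0.0183), and Esrp2, the paralogue of Esrp1 (0.37; 0.0225), also rose. Crb2, a second Crumbs gene, fell by 1.53 on the log2 scale, to 3.40 ± 1.48 CPM in Lingo3-/- against 9.98 ± 2.95 CPM in wild type (SD, n = 3; edgeR adjusted p = 0.0187). Arhgef18, a guanine nucleotide exchange factor of the junction, fell by 0.32 (edgeR adjusted p = 0.0301). Of these, Pkp1 lost its call without Lingo3-/- replicates 2 or 3 or wild type replicate 3 (adjusted p up to 0.0816), Crb2 without Lingo3-/- replicates 2 or 3 (up to 0.0842), and Esrp2 without either of these or wild type replicates 2 or 3 (up to 0.103). Arhgef18 was called in 8 of 15 alternatives. Among others, it lost its call with library totals only (adjusted p = 0.805), without Lingo3-/- replicates 2 (0.116) or 3 (0.106), and without wild type replicates 1 (0.0760), 2 (0.0829) or 3 (0.0775). Calls on this list numbered 3 without Lingo3-/- replicate 2 and 2 without Lingo3-/- replicate 3. The list also holds beta-catenin (Ctnnb1), which did not pass, with a log2 fold change of 0.08. The share called, 7 of 50, stood beside 15.4% of all genes.

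The authors' deposited table listed 9 of the 43 at an adjusted p under 0.05, against 16.7% of its genes. These were the 7 called here and, in the authors' deposited table, Lama5 (log2 fold change -0.69, adjusted p = 0.00924) and Ppl (-0.56, adjusted p = 0.0491), both lower in Lingo3-/-.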

How the data were processed

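The authors deposited raw counts per Ensembl gene, made per the submitters' processing notes with Trimmomatic 0.39, STAR and HTSeq on GRCm38; for the other versions, strand setting and annotation release, the sources used here give no statement. The authors' deposited comparison table holds DESeq2 log2 fold changes, p-values, a test score, and signal columns (counts divided by 1 factor per library, to within 5e-15); it was used only where named. HTSeq summary lines, 53.6 to 60.1% of reads per library, were left out.

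Counts were filtered with filterByExpr (minimum count 10, minimum total 15), scaled with TMM factors and tested across all 16856 genes with edgeR's robust quasi-likelihood test, genotype the only term, 2-sided, Benjamini-Hochberg adjusted, threshold 0.05 (R 4.3.3, edgeR 4.0.16, limma 3.58.1, DESeq2 1.42.0). CPM used counts over TMM-scaled totals; log2 CPM for libraries and figures had a prior count of 2. SE is the log2 fold change over the root of F. A floor of 3 counts was 0.113 to 0.240 CPM and covers counting error only. Coordinates, exon lengths and overlaps came from GENCODE M21 (GRCm38). Count ratios of gene pairs used an exact 2-sided permutation test. The scripts were tested on simulated data. Libraries were no copies of each other (smallest chi-square per degree of freedom 9.40).

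Members and lists were chosen with earlier results of these data known. Values per library are given for members past the threshold, for the most abundant and the most changed member of each role, and for Ocln, Tjp1, Cdh1 and Epcam, by rule; Marveld2, Ctnnd1, Dsg2, Ppl, Itgb4, Lama5, Pard6b and Itgb1 were added as partners or borderline cases after their values were seen.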

Additional observations from a re-analysis of the deposited data

How the results depend on the processing

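Itga6, Dsc2 and Nectin3 kept their calls in all 15 alternatives of scaling, filter, tool, block or left-out library. The 5 members higher became 21 with library totals only, 3 with glmTreat against a 1.2-fold change and 3 to 7 without single libraries. The 2 lower became 0 with library totals only, 4 by DESeq2, 4 with no filter, 1 with the replicate block, 0 with glmTreat and 0 to 3 without single libraries. The 7 calls among other junction genes became 11 with upper-quartile factors, 21 with library totals only, 11 by DESeq2, 14 with no filter, 14 at an adjusted p under 0.1, 2 with glmTreat and 2 to 9 without single libraries. The median of the members was 0.28 with library totals only, as was the shift of all genes (0.28), and -0.0383 to 0.0821 without single libraries. Over all genes 61.2% of calls were higher, against 45.4% with upper-quartile factors and 92.8% with library totals only. Calls over all genes numbered 1371 without Lingo3-/- replicate 2, 1124 without Lingo3-/- replicate 3, 1672 without wild type replicate 2 and 1679 without wild type replicate 3, against 2596. Same-numbered libraries did not deviate together (r = -0.0102, -0.117 and -0.103), so they share only a number; with the replicate block 2061 genes were called, and of the 7 members called Evpl lost its call (adjusted p = 0.0817), as did Arhgef18 among the other junction genes named (0.0604).

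With library totals only, the log2 fold changes of Marveld3 (0.27), Cxadr (0.17), Tjp1 (0.16), Tjp3 (0.15), Cgn (0.10), Cgnl1 (0.0401), Magi1 (0.17), Afdn (0.21), Dsg2 (0.0246), Jup (0.24), Pkp3 (0.14), Itgb4 (0.27), Lamb3 (0.0663), Pard3 (0.17), Pard6b (0.26), Patj (0.0680) and Crb3 (0.28) turned positive. Upper-quartile factors turned F11r (-0.0564), Ctnna1 (-0.0042), Nectin2 (-0.0624) and Dsp (-0.0629), and a mean CPM of at least 1 turned F11r (-0.0068), Nectin2 (-0.0106) and Dsp (-0.0125). Crb3 turned to 0.0055 with totals without mitochondrial genes, 0.0088 with no filter and 0.00070 with the replicate block. Without single libraries the sign varied for Marveld3 (-0.12 to 0.12), F11r (-0.0477 to 0.15), Dsp (-0.0383 to 0.0789), Crb3 (-0.0687 to 0.10), Cxadr (-0.19 to 0.0348), Jup (-0.0941 to 0.0821), Itgb4 (-0.0776 to 0.0603), Pard6b (-0.31 to 0.11), Nectin2 (-0.0743 to 0.0935), Tjp1 (-0.22 to 0.0064), Magi3 (-0.0168 to 0.22), Cdh1 (-0.0078 to 0.27) and Afdn (-0.14 to 0.0144). The causes were not tested.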
